A study of Mus musculus with 10 samples.

Results

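In Neuro2a cells, a mouse neuroblastoma line, 10 genes were followed that had been chosen for rising with a zinc-finger repressor of Scn9a: Mamdc2, Htr3a, Plxnd1, Lyst, Stard5, Ttll13, Slc1a7, Fgf11, Slc38a3 and Tmem8b. They are 10 of the 55401 genes listed and 10 of the 12899 genes that passed the filter on low counts in the zinc-finger comparison. All 10 also passed that filter in the comparison of the second repressor, built on dCas9, and none was dropped. The genes were picked by their measured rise in ZF-SCN9A libraries over mCherry libraries, so their values there are given as a description, with no test. The stated rule for the choice does not use the dCas9 libraries, and the genes were tested there. Earlier results of these data, dCas9 included, were known when the set was named as raised by the zinc finger only. The dCas9 tests are therefore not known to be independent of the choice.

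The data are 10 RNA-seq libraries of wild-type Neuro2a cells, all transfected with plasmids by lipofection. The groups were ZF-SCN9A, a zinc-finger protein directed at SCN9A (2 libraries), mCherry, a red fluorescent protein taken as its control (2 libraries), dCas9-SCN9A, a Cas9 without cutting activity directed at SCN9A (3 libraries), and its control dCas9-empty (3 libraries). Per the labels' protocols the plasmid amount was 0.5 μg of each, the medium was changed after 24 h, and cells were kept on the plates for 72 h. The target, Scn9a, codes for Nav1.7, a sodium channel known for its part in pain signalling. Transfection is transient, Neuro2a is a single tumour-derived line, and expression was read on the whole dish, so fewer cells of a type and less RNA per cell cannot be told apart. The zinc-finger and dCas9 arms shared no library. No binding position of either repressor is used here.

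Gene counts summed to 4.41 to 6.30 M (M for 1e6) in ZF-SCN9A libraries and 6.59 to 7.48 M in mCherry libraries. The dCas9 arm was deeper, with 15.4 to 16.4 M in dCas9-SCN9A and 17.8 to 19.0 M in dCas9-empty. Levels below are counts per 1e6 gene counts (CPM), scaled by TMM over all 10 libraries, and fold changes come from a separate edgeR fit for each arm. The plasmid entries matched the labels, with 246775 and 178465 reads of the zinc finger in ZF-SCN9A libraries against 35 and 14 in mCherry libraries, and none in the dCas9 arm. Scn9a stood at 18.1 and 15.0 CPM in ZF-SCN9A against 60.3 and 54.3 CPM in mCherry, a log2 fold change of -1.76 ± 0.14 (SE, edgeR adjusted p = 1.71e-34). In the dCas9 arm its log2 fold change was -1.38 ± 0.07 (SE, edgeR adjusted p = 2.24e-09), and the difference between the repressors was -0.39 ± 0.15 (edgeR adjusted p = 0.278). Of 14 genes that mark sympathoadrenal neuroblastoma cells, 12 averaged at least 1 CPM in each group. Summed CPM of that list was 3086 to 3127 in ZF-SCN9A and 3093 to 3149 in mCherry. It was 4285 to 4799 in dCas9-SCN9A and 4345 to 4637 in dCas9-empty, so the arms differed in this sum. Marker genes of other cell types summed to low levels. In ZF-SCN9A against mCherry the sums were 15.5 to 21.2 against 14.3 to 18.3 CPM for 6 fibroblast genes, 31.6 to 36.4 against 31.6 to 32.6 CPM for 6 glial genes and 2.18 to 2.28 against 1.04 to 2.21 CPM for 6 immune genes. They were 22.0 to 22.4 against 17.4 to 19.9 CPM for 5 endothelial genes and 1.52 to 2.18 against 2.37 to 2.60 CPM for 4 epithelial genes. Itgam, Cd3e, Kdr, Cldn5 and Sox10 were at or below 0.304 CPM in every library. The part of these genes in the results was not tested.

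The 10 genes have no single pathway in common. Htr3a encodes a subunit of the 5-HT3 serotonin receptor, an ion channel opened by serotonin, and Plxnd1 a plexin, a receptor through which semaphorins steer growing axons and vessels. Slc1a7 and Slc38a3 encode transporters of glutamate and of glutamine, and Fgf11 an FGF homologous factor, one of a family that stays inside cells and binds voltage-gated sodium channels. Mamdc2 encodes a secreted proteoglycan with MAM domains. Lyst, Stard5 and Ttll13 act inside the cell, in lysosome trafficking, lipid transport and the modification of tubulin. Tmem8b encodes a membrane protein related to Pgap6, an enzyme that cleaves lipid anchors.

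With the zinc finger, log2 fold changes of the 10 genes over mCherry ran from 0.31 for Lyst to 2.05 for Ttll13, with a median of 1.13, beside a median of 0.00 over all 12899 genes. All 10 were among the genes called higher at an edgeR adjusted p under 0.05, a call made for 1.95% of genes tested, and all 10 had both ZF-SCN9A libraries above both mCherry libraries, as did 22.2% of genes tested. Both counts follow from the way the genes were chosen and nothing is read from them. The set is not made of the largest rises. Among all genes tested, 15 had a larger log2 fold change than Ttll13, 62 a larger one than Mamdc2 and 1370 a larger one than Lyst. With dCas9-SCN9A the same 10 genes ran from -0.34 to 0.73 with a median of -0.07, beside a median of 0.01 over all 14628 genes. None of the 10 was called with dCas9-SCN9A, where 0.041% of genes tested were called in either direction. That count may follow in part from the choice of the genes. At an unadjusted p under 0.05 the count was 2, with Lyst lower, as were 5.92% of genes tested, and Ttll13 higher, as were 4.17%. The count with dCas9-SCN9A was 1 by DESeq2, for Lyst, and 0 by limma-voom.

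**Figure D1:**
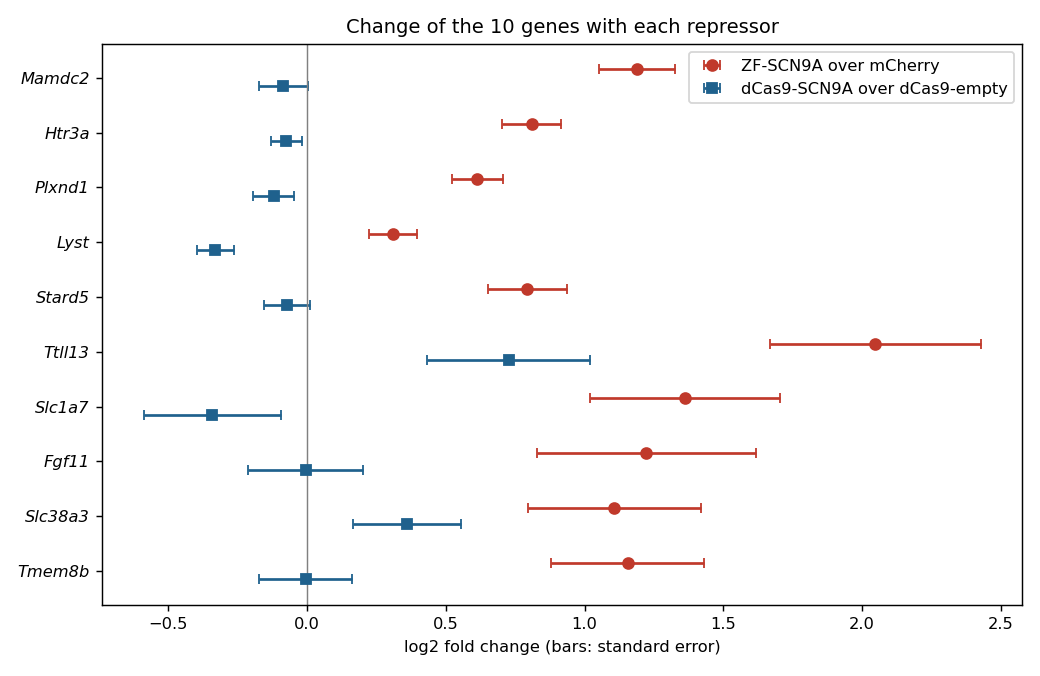
Log2 fold change of the 10 genes (rows) in ZF-SCN9A over mCherry (circles, 2 libraries each) and in dCas9-SCN9A over dCas9-empty (squares, 3 libraries each), with bars for the standard error of each edgeR fit. All 10 circles lie right of 0 because the genes were chosen so, while the squares lie between -0.34 and 0.73 and 8 of them are below 0, where 51.7% of all genes tested were above 0.

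The receptor genes came from the abundant end of the set. Htr3a (chr9:48899213-48911099, minus strand, GRCm38) had 79.9 and 70.6 CPM in ZF-SCN9A libraries, against 45.4 and 41.4 CPM in mCherry libraries. The zinc-finger libraries stood clear of the control, with a log2 fold change of 0.81 ± 0.11 (SE), or 1.75-fold. Among dCas9 libraries Htr3a had 94.3, 105 and 102 CPM in dCas9-SCN9A, against 107, 109 and 101 CPM in dCas9-empty. Those groups overlapped, and the log2 fold change was -0.08 ± 0.06 (SE, 95% interval -0.19 to 0.04, edgeR adjusted p = 0.701). Every library of the zinc-finger arm thus held less Htr3a than every library of the dCas9 arm, and the ZF-SCN9A libraries lay between mCherry and the dCas9 libraries.

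Plxnd1, the receptor for semaphorin 3E (chr6:115954811-115995005, minus strand), had 98.6 and 103 CPM in ZF-SCN9A, against 60.8 and 71.0 CPM in mCherry. The 2 groups were separate, at a log2 fold change of 0.61 ± 0.09 (SE), or 1.53-fold. With dCas9-SCN9A it had 108, 97.6 and 88.0 CPM, against 115, 106 and 98.5 CPM in dCas9-empty. The dCas9 groups overlapped, and the change was -0.12 ± 0.07 on the log2 scale (SE, 95% interval -0.28 to 0.04, edgeR adjusted p = 0.633). ZF-SCN9A libraries lay within the range of the dCas9 arm for Plxnd1, and the mCherry libraries lay below all 6 of it.

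Both transporter genes were expressed at low levels. Slc1a7, which encodes EAAT5, a glutamate transporter best known from the retina (chr4:107968332-108013532, plus strand), had 5.94 and 8.50 CPM in ZF-SCN9A, against 1.63 and 3.77 CPM in mCherry. These rested on 39 and 39 reads in ZF-SCN9A and on 11 and 29 reads in mCherry, so the groups were separate while the mCherry libraries differed widely from each other. The log2 fold change was 1.36 ± 0.34 (SE), and it was 0.91 without mCherry replicate 1 and 2.12 without mCherry replicate 2. With dCas9-SCN9A the levels were 2.37, 1.91 and 1.88 CPM, against 2.07, 2.58 and 3.16 CPM in dCas9-empty. Those groups overlapped, with a log2 fold change of -0.34 ± 0.25 (SE, 95% interval -0.86 to 0.18, edgeR adjusted p = 0.688).

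Slc38a3, which encodes the sodium-coupled glutamine transporter SNAT3 (chr9:107650634-107669530, minus strand), had 8.37 and 7.19 CPM in ZF-SCN9A, against 2.66 and 4.55 CPM in mCherry. Its groups were separate, on 55 and 33 reads in ZF-SCN9A and 18 and 35 reads in mCherry, at a log2 fold change of 1.11 ± 0.31 (SE). In the dCas9 arm it had 5.27, 4.45 and 3.96 CPM in dCas9-SCN9A, against 4.20, 2.96 and 3.51 CPM in dCas9-empty. The dCas9-SCN9A libraries lay mostly higher but overlapped the control. The log2 fold change was 0.36 ± 0.20 (SE, 95% interval -0.05 to 0.77, edgeR adjusted p = 0.562), an interval that reaches a 1.71-fold rise.

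Fgf11 (chr11:69796068-69801857, minus strand) is the member of the set whose family binds the tails of sodium channels. Its level was 5.78 and 4.36 CPM in ZF-SCN9A, against 1.92 and 2.47 CPM in mCherry. The groups were separate, on 38 and 20 reads in ZF-SCN9A and 13 and 19 reads in mCherry, at a log2 fold change of 1.22 ± 0.39 (SE). With dCas9-SCN9A it had 5.01, 4.96 and 3.12 CPM, against 3.92, 3.95 and 5.29 CPM in dCas9-empty. The dCas9 groups covered each other, with a log2 fold change of -0.01 ± 0.21 (SE, 95% interval -0.44 to 0.43, edgeR adjusted p = 0.996). The ZF-SCN9A libraries lay 1 above and 1 within the range of the dCas9 arm, and both mCherry libraries below it.

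Mamdc2 (chr19:23302609-23448442, minus strand) gave the most precise rise of more than 2-fold in the set. It had 44.0 and 47.9 CPM in ZF-SCN9A, against 19.8 and 20.5 CPM in mCherry. The groups were far apart relative to their spread, at a log2 fold change of 1.19 ± 0.14 (SE), or 2.28-fold. All 6 dCas9 libraries lay near the mCherry level, with 19.6, 19.3 and 17.7 CPM in dCas9-SCN9A, against 20.9, 20.4 and 18.9 CPM in dCas9-empty. That change was -0.09 ± 0.09 on the log2 scale (SE, 95% interval -0.27 to 0.10, edgeR adjusted p = 0.796). For Mamdc2 the ZF-SCN9A libraries were therefore the ones that stood apart from the other 8.

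Stard5 (chr7:83631959-83653127, plus strand) encodes a START-domain protein that binds cholesterol and bile acids. It had 33.6 and 39.4 CPM in ZF-SCN9A, against 20.3 and 21.7 CPM in mCherry. As with Mamdc2, the ZF-SCN9A libraries were above the other 8, and the log2 fold change was 0.79 ± 0.14 (SE), or 1.73-fold. The dCas9-SCN9A libraries had 21.4, 20.3 and 22.7 CPM, against 21.8, 23.4 and 22.5 CPM in dCas9-empty. They overlapped, with a log2 fold change of -0.07 ± 0.08 (SE, 95% interval -0.25 to 0.10, edgeR adjusted p = 0.831). Il16, on the other strand, overlaps 22.0% of the exon bases of Stard5, and without strand the reads of the 2 genes there cannot be told apart.

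Ttll13 (chr7:80246376-80260821, plus strand) encodes a tubulin polyglutamylase, an enzyme that adds chains of glutamate to tubulin. It had 7.15 and 7.19 CPM in ZF-SCN9A, against 1.63 and 1.82 CPM in mCherry, on 47 and 33 reads in ZF-SCN9A and 11 and 14 reads in mCherry. The zinc-finger libraries were near each other and far above the rest, with the largest log2 fold change of the set, 2.05 ± 0.38 (SE), or 4.13-fold. The libraries are unstranded, so each strand column holds a part of the same reads and tells nothing of the strand of Ttll13. On these fewer reads the size of the rise moved. It was 1.27 ± 0.54 (SE) on the first strand column, with 28 reads in ZF-SCN9A and 15 in mCherry. On the other column it was 2.79 ± 0.48 (SE), with 54 and 10. In the dCas9 arm Ttll13 had 1.45, 1.72 and 1.62 CPM in dCas9-SCN9A, against 1.04, 0.933 and 0.920 CPM in dCas9-empty. Here every dCas9-SCN9A library was also above every control library, as was the case for 6.37% of genes tested. The log2 fold change was 0.73 ± 0.29 (SE, 95% interval 0.11 to 1.35), with an unadjusted edgeR p of 0.024 and an adjusted p of 0.412, so Ttll13 was not called. By these values a smaller rise of Ttll13 with dCas9-SCN9A is within the interval, and the gene is not shown to respond to the zinc finger alone.

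Tmem8b (chr4:43668971-43692668, plus strand) had 10.2 and 9.37 CPM in ZF-SCN9A, against 4.44 and 4.42 CPM in mCherry. The groups were separate, on 67 and 43 reads in ZF-SCN9A and 30 and 34 reads in mCherry, at a log2 fold change of 1.15 ± 0.28 (SE). With dCas9-SCN9A it had 5.67, 6.36 and 4.68 CPM, against 5.35, 4.94 and 6.50 CPM in dCas9-empty. Those groups overlapped, and the log2 fold change was 0.00 ± 0.17 (SE, 95% interval -0.36 to 0.35, edgeR adjusted p = 0.996). Both ZF-SCN9A libraries were above all 6 dCas9 libraries and both mCherry libraries below them.

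Lyst (chr13:13590397-13778803, plus strand) encodes the lysosomal trafficking regulator, a large BEACH-domain protein whose loss causes the beige coat of mice and Chediak-Higashi syndrome in people. Its level was 107 and 112 CPM in ZF-SCN9A, against 90.8 and 86.2 CPM in mCherry. The groups were separate, though the rise was the smallest of the set, with a log2 fold change of 0.31 ± 0.09 (SE), or 1.24-fold. In the dCas9 arm the order was the other way round, with 129, 107 and 113 CPM in dCas9-SCN9A, against 149, 151 and 139 CPM in dCas9-empty. Every dCas9-SCN9A library was below every control library, as was the case for 9.33% of genes tested. The log2 fold change was -0.33 ± 0.07 (SE, 95% interval -0.47 to -0.19), with an unadjusted edgeR p of 1.1e-04 and an adjusted p of 0.114, so Lyst was not called. It was called lower without dCas9-SCN9A replicate 1 (log2 fold change -0.41, edgeR adjusted p = 0.0165), and over all alternatives the adjusted p ran from 1.71e-05 to 0.710.

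**Figure D2:**
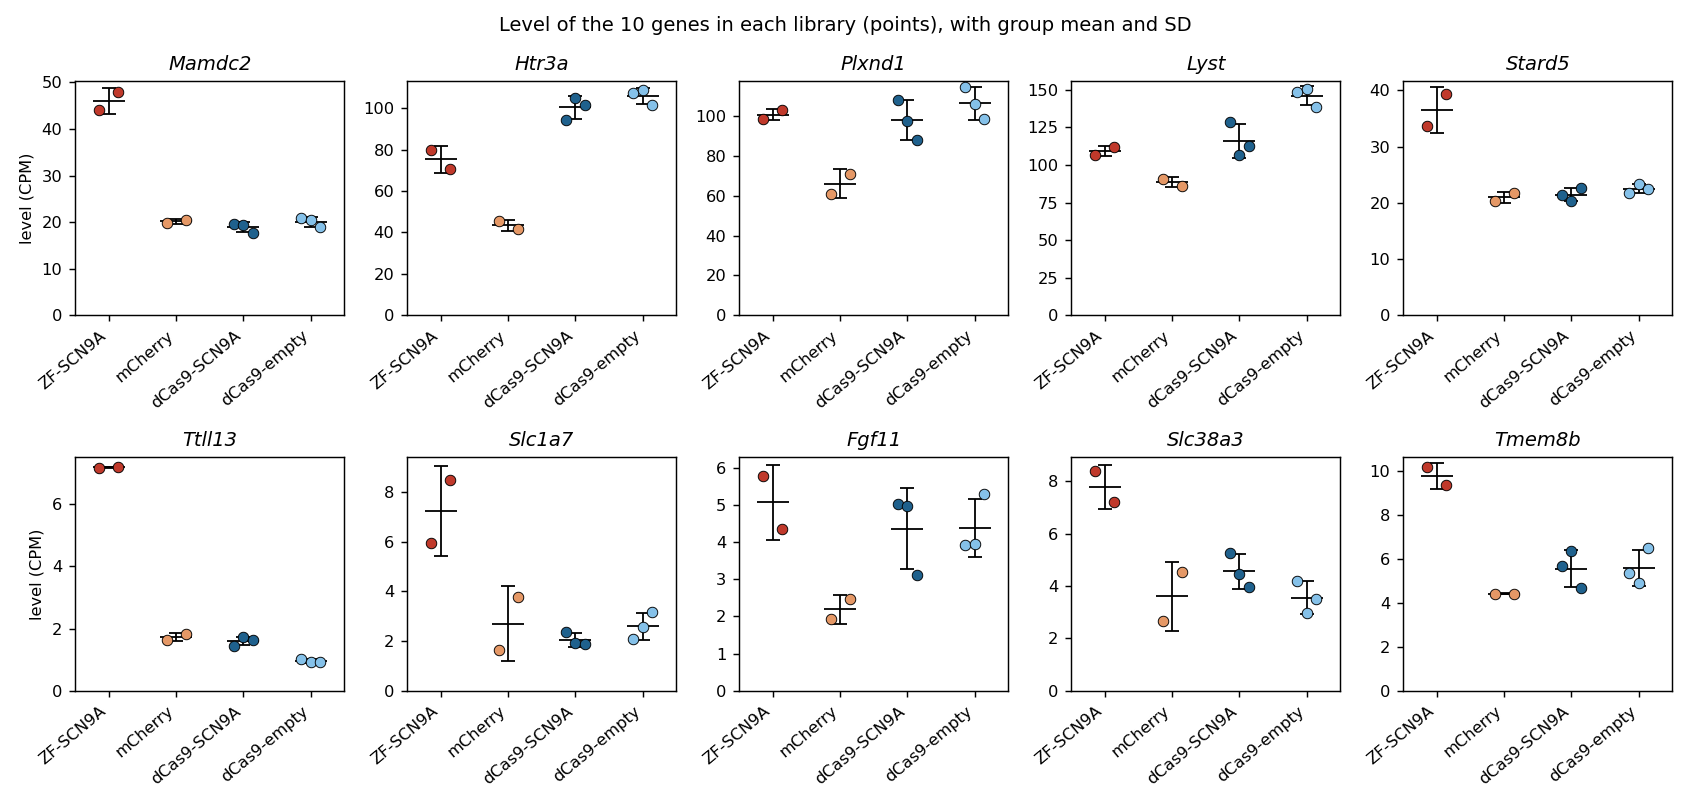
Level in CPM (y axis, from 0) of each of the 10 genes in each library (points), for ZF-SCN9A, mCherry, dCas9-SCN9A and dCas9-empty from left to right, with the group mean as a line and the SD as bars. In each panel both ZF-SCN9A points lie above both mCherry points, while dCas9-SCN9A and dCas9-empty overlap in every panel except Lyst, where dCas9-SCN9A is lower, and Ttll13, where it is higher.

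The difference between the repressors, as the change with the zinc finger minus the change with dCas9, was above 0 for all 10 genes. It ran from 0.63 ± 0.11 (SE) for Lyst to 1.71 ± 0.44 (SE) for Slc1a7 on the log2 scale, with a median of 1.02. This difference contains the rise that chose the genes, so it is given with no test. For Lyst about as much of it came from the lower level with dCas9-SCN9A, at -0.33, as from the rise with the zinc finger, at 0.31.

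Where the ZF-SCN9A level stood against the dCas9 arm divided the set. For 6 genes (Mamdc2, Stard5, Ttll13, Slc1a7, Slc38a3 and Tmem8b) both ZF-SCN9A libraries were above all 6 dCas9 libraries. For Plxnd1 both lay within the dCas9 range, and for Htr3a both below it. For Fgf11 1 lay above that range and 1 within it, and for Lyst 1 lay within it and 1 at its lower edge (107 CPM, as in the lowest dCas9 library). The mCherry libraries were below all 6 dCas9 libraries for 5 genes: Htr3a, Plxnd1, Lyst, Fgf11 and Tmem8b. Mean CPM in mCherry over that in dCas9-empty was 0.410 for Htr3a, 0.501 for Fgf11, 0.606 for Lyst and 0.620 for Plxnd1. The same ratio was 0.931 for Stard5, 1.01 for Mamdc2, 1.01 for Slc38a3, 1.04 for Slc1a7 and 1.79 for Ttll13. For Htr3a, Plxnd1, Lyst and Fgf11 the mCherry control was thus itself lower than the other control. The ZF-SCN9A and mCherry levels both entered the choice of the genes, which favours a low mCherry level, so these positions are given as a description. Tmem8b, at a ratio of 0.791, lay just under the dCas9 range. For the other genes the mCherry libraries were not both below or both above that range. The plasmids, the depth and any other difference between the arms cannot be told apart here. The 241 other genes called higher with the zinc finger held both patterns too: ZF-SCN9A was above all 6 dCas9 libraries for 117 (48.5%) and mCherry below all 6 for 119 (49.4%), against 25.3% and 24.7% of all genes tested.

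**Figure D3:**
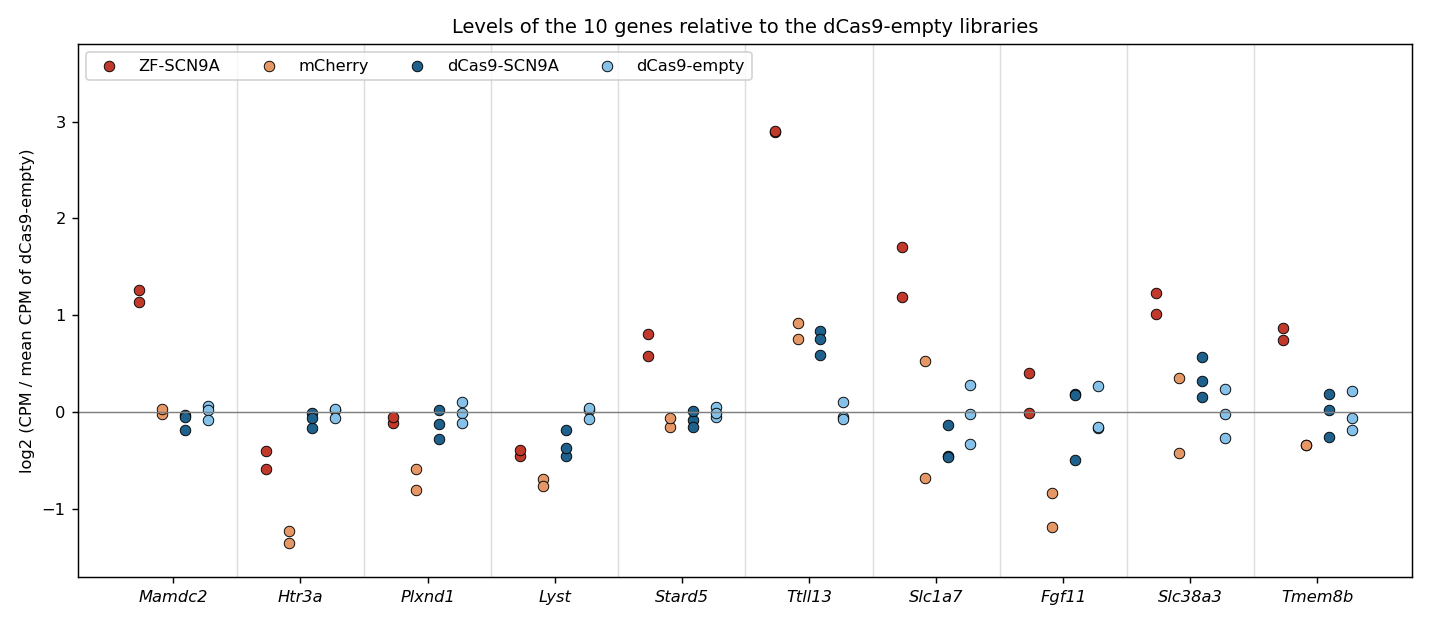
Level of the 10 genes in each library, as log2 of its CPM over the mean CPM of dCas9-empty (y axis), for ZF-SCN9A, mCherry, dCas9-SCN9A and dCas9-empty from left to right within each gene. Points at 0 equal the dCas9-empty mean. For Htr3a, Plxnd1, Lyst and Fgf11 the mCherry points fall clearly below 0 and the ZF-SCN9A points at 0.40 or below. For Mamdc2, Stard5, Ttll13, Slc1a7, Slc38a3 and Tmem8b the ZF-SCN9A points stand above all others.

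Per kilobase of exon, mean levels in ZF-SCN9A spanned a wide range within the set. Htr3a stood at 36.1 CPM per kb, Plxnd1 at 13.8 and Mamdc2 at 13.3. Stard5 and Lyst followed at 6.69 and 6.26 CPM per kb, and Slc1a7, Tmem8b, Fgf11, Ttll13 and Slc38a3 lay between 1.47 and 2.15. The lower 5 are also the genes whose rise had the largest standard errors, between 0.28 and 0.39 on the log2 scale.

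Promoter sequences were read for the genes as a description, since their shared rise with the zinc finger is how they were chosen. The RefSeq table for GRCm38.p6, which gives 250 bases before to 50 bases after each start, held 8 promoters of 7 of the 10 genes. Htr3a, Mamdc2 and Slc38a3 were not matched. Shown are the 250 bases before the start of Lyst and Plxnd1, the most abundant matched genes, and of Ttll13. The plan was to show the 3 matched genes with the highest mean CPM in ZF-SCN9A, which include Stard5 (36.5 CPM). Ttll13 (7.17 CPM) was shown in place of Stard5 after the rise of Ttll13 was seen. Capitals mark matches on either strand to the letters of known promoter elements. GGGCGG is the GC box, and CCAAT names its own box. The E-box searched was CACGTG. It contains the core of the hypoxia response element, searched as ACGTG. The half-site of the cyclic AMP response element was searched as TGACG.
Lyst promoter, chr13:13590159-13590408, plus strand: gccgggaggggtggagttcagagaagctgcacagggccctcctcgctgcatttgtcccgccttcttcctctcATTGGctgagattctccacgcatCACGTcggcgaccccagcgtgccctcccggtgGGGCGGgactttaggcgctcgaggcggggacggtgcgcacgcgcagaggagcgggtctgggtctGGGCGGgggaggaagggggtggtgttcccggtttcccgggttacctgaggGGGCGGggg
Plxnd1 promoter, chr6:115995006-115995255, minus strand: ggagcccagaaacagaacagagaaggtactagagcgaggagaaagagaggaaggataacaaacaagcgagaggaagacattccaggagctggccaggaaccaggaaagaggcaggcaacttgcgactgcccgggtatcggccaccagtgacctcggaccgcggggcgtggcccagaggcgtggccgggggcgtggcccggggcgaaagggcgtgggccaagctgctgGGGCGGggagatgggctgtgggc
Ttll13 promoter, chr7:80246126-80246375, plus strand: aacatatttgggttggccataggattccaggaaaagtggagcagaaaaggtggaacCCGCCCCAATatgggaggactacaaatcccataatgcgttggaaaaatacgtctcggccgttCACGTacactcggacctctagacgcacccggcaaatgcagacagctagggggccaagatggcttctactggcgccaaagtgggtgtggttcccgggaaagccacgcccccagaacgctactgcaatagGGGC
In Ttll13 a GC box and a CCAAT match share a base, and a further GC box runs past the end of the bases shown. Over the full 300 bases a GC box was found in 6 of the 8 promoters, against 35.7% of all 32851 promoters, and CCAAT in 6 of the 8, against 37.4%. The hypoxia core was found in 4 (19.6% of all promoters), the cyclic AMP half-site in 3 (20.8%) and the E-box in 1, that of Slc1a7 (7.15%). Neither the TATA box TATAAA (13.6% of all) nor TGATGNAA, the element bound by the stress factors ATF4 and CHOP (3.97%), was found in these windows. Median GC content was 59.0% in the 8 promoters and 52.7% in all, with a median of 18.5 CpG against 7. Tmem8b has more than 1 of these promoters, so CCAAT was found for 5 genes and the cyclic AMP half-site for 2. The 32851 promoters belong to 27025 genes, more than were tested here, so the shares are not matched for expression. A match is a description of the letters and not evidence of binding.

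Genes listed as relatives of the members mostly did not move with them. The lists hold family members and some partners, such as semaphorins and neuropilins for Plxnd1 and the chaperone Ric3 for Htr3a. Of 109 symbols listed by family, 106 were found. The others, Cert1, Pgap6 and Tmem8c, are second names of genes that were found. Of the 106, 66 were tested with the zinc finger, where 1 was called higher and 4 lower. Of all genes tested 1.95% were called higher and 2.78% lower, 4.72% in all. At an unadjusted p under 0.05 the count was 11 of 66, where 7.78% of all genes were higher and 8.4% lower. Their median log2 fold change was 0.00, with 33 of 66 above 0, as were 50.4% of all genes tested, whose median was 0.00. With dCas9-SCN9A 68 relatives were tested and none was called by edgeR, with 12 at an unadjusted p under 0.05. The median over the 68 was -0.04, with 24 of 68 above 0, against 51.7% of all genes tested there. Of all genes tested there, edgeR called 0.041% and DESeq2 called 28 of 14628. The shares at an unadjusted edgeR p under 0.05 were 4.17% higher and 5.92% lower. By limma-voom the count of relatives called was 0, and by DESeq2 it was 2: Nbea (log2 fold change -0.28 ± 0.07 SE, DESeq2 adjusted p = 0.0293), a BEACH relative of Lyst, and Plxna4 (-0.36 ± 0.09 SE, DESeq2 adjusted p = 0.042), a plexin. Both are named after their values were seen. The count of 5 with the zinc finger was 3 without mCherry replicate 1 and 2 without ZF-SCN9A replicate 1.

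Htr3b, the partner subunit that joins Htr3a in the 5-HT3 receptor and does not form a working channel by itself, was the relative called higher. It had 2.13 and 2.83 CPM in ZF-SCN9A, against 0.296 and 0.649 CPM in mCherry, on 14 and 13 reads in ZF-SCN9A and 2 and 5 reads in mCherry. The log2 fold change was 2.29 ± 0.67 (SE, edgeR adjusted p = 0.0202), and the call was lost without any 1 of the 4 libraries (adjusted p 0.0721 to 0.367). Htr3b had 3.23, 3.69 and 4.81 CPM in dCas9-SCN9A, against 2.88, 3.84 and 4.25 CPM in dCas9-empty. As with Htr3a, ZF-SCN9A and mCherry libraries were all lower than all 6 dCas9 libraries, with mCherry the lowest. The dCas9 groups overlapped, at a log2 fold change of 0.10 ± 0.21 (SE, edgeR adjusted p = 0.922), and the difference between the repressors was not called at 2.21 ± 0.61 (edgeR adjusted p = 0.0783). The other 6 tested relatives of this family, nicotinic receptor subunits and the chaperone Ric3 among those listed, were not called.

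Nbeal1, a BEACH-domain relative of Lyst (chr1:60180599-60338328), had 16.6 and 19.2 CPM in ZF-SCN9A, against 35.2 and 29.9 CPM in mCherry. The groups were separate, and it fell by 0.87 ± 0.15 on the log2 scale (SE, edgeR adjusted p = 2.19e-06), while Lyst was chosen for its rise. With the other repressor it had 28.4, 25.2 and 26.0 CPM in dCas9-SCN9A, against 30.9, 28.1 and 30.6 CPM in dCas9-empty, with overlapping groups (log2 fold change -0.17 ± 0.08 SE, edgeR adjusted p = 0.497). The difference between the repressors was -0.70 ± 0.17 (SE, edgeR adjusted p = 0.0281), a test that called 0.907% of genes. The call with the zinc finger stood without each of the 4 libraries.

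Stard10, a START-domain relative of Stard5 that transfers phospholipids, also fell. It had 20.4 and 24.8 CPM in ZF-SCN9A, against 35.2 and 34.9 CPM in mCherry, a log2 fold change of -0.64 ± 0.14 (SE, edgeR adjusted p = 5.1e-04). The groups were separate, but the call was lost without ZF-SCN9A replicate 1 (log2 fold change -0.49, edgeR adjusted p = 0.212). The dCas9 change was -0.01 ± 0.08 (SE, edgeR adjusted p = 0.979), and the difference between the repressors was -0.64 ± 0.16 (SE, edgeR adjusted p = 0.0353). Stard6 had a log2 fold change of 1.11 ± 0.47 (SE) with the zinc finger and was not called (edgeR adjusted p = 0.176). It is named here after its value was seen.

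Slc38a2, which encodes the amino acid transporter SNAT2, is a relative of Slc38a3. It had 463 and 428 CPM in ZF-SCN9A, against 690 and 551 CPM in mCherry. Its log2 fold change was -0.47 ± 0.06 (SE, edgeR adjusted p = 3.32e-11), and -0.30 without mCherry replicate 1. The dCas9 change was -0.05 ± 0.06 (SE, edgeR adjusted p = 0.851), and the difference between the repressors was not called (-0.43 ± 0.12, edgeR adjusted p = 0.0953). Plxna1, a plexin related to Plxnd1, had 161 and 194 CPM in ZF-SCN9A, against 216 and 198 CPM in mCherry. Its log2 fold change was -0.22 ± 0.07 (SE, edgeR adjusted p = 0.0434), but -0.16 without mCherry replicate 1 (adjusted p = 0.414) and -0.09 without ZF-SCN9A replicate 1 (adjusted p = 0.828), so the call rests on those libraries. It was -0.36 without ZF-SCN9A replicate 2. The dCas9 change was of the same size, -0.22 ± 0.06 (SE), and not called (edgeR adjusted p = 0.212).

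In the other families no relative was called with the zinc finger. Ttll12, the most abundant relative of Ttll13, had a log2 fold change of -0.07 ± 0.07 (SE, edgeR adjusted p = 0.746), and none of the 8 tested tubulin tyrosine ligase-like genes was called. Slc1a5, the neutral amino acid transporter ASCT2, had 0.15 ± 0.07 (SE, edgeR adjusted p = 0.207). Fgf14, the tested FGF homologous factor besides Fgf11, had the opposite sign at -0.86 ± 0.46 (SE, edgeR adjusted p = 0.342). Nrp2, a semaphorin co-receptor with a MAM domain, stood at 0.10 and Tmem8 at 0.39, neither of them called.

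**Figure D4:**
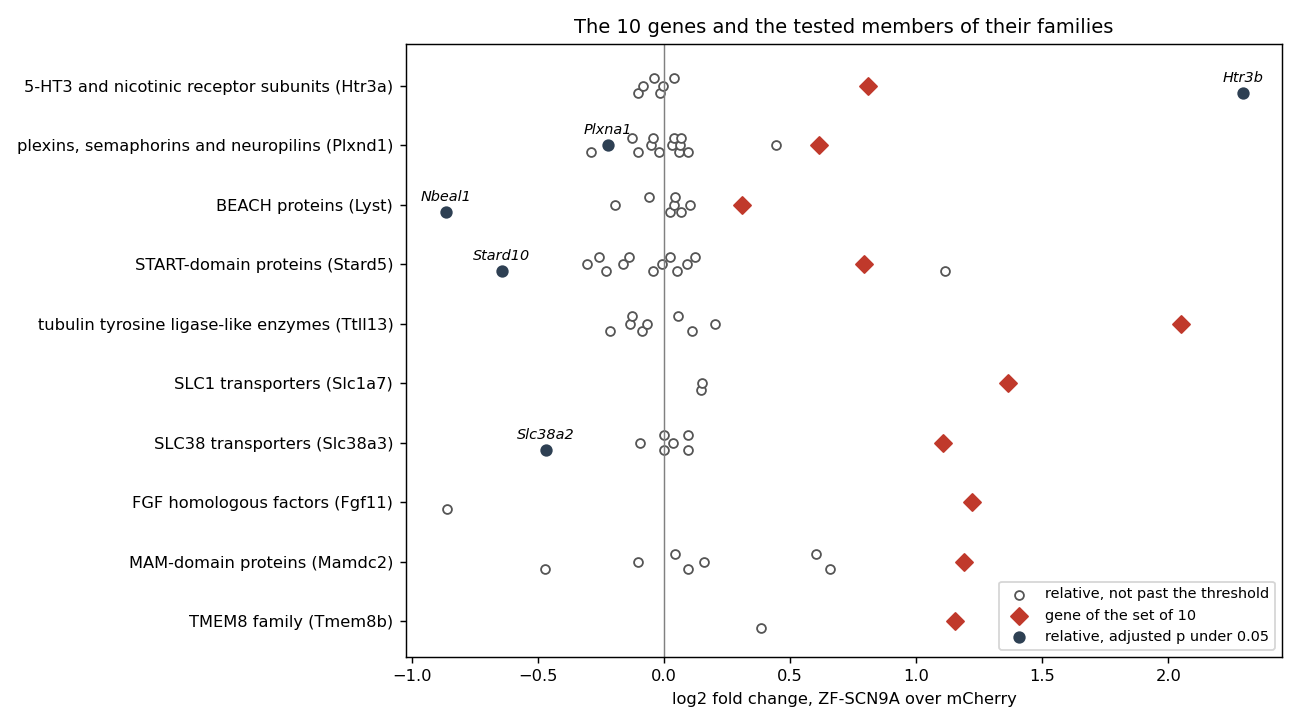
Log2 fold change in ZF-SCN9A over mCherry (x axis) for each of the 10 genes (diamonds) and the tested relatives of its family (circles, filled where the edgeR adjusted p is under 0.05), 1 family a row. The diamonds lie right of 0 by choice, while 33 of 66 relatives, each counted once, lie above 0. Nrp1 and Nrp2 are listed in more than 1 family and are drawn in each. Htr3b is the filled circle on the right, and Plxna1, Nbeal1, Stard10 and Slc38a2 are those on the left.

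The genes next to the members on the chromosome were examined for shared changes. Of the 20 nearest tested genes, 1 on each side of each member, 1 was called higher with the zinc finger (Htr3b, 23909 bases from Htr3a) and none lower by edgeR, beside 1.95% of all genes called higher and 2.78% lower. At an unadjusted p under 0.05 the count was 5 of 20, where 7.78% of all genes were higher and 8.4% lower, and DESeq2 called none. Their median log2 fold change was 0.08, with 11 of 20 above 0, as were 50.4% of all genes. The count was 3 without mCherry replicate 2 and 0 without any 1 of the other libraries of this arm. Chrnb1, 125 bases from Fgf11, had a log2 fold change of -0.04 ± 0.36 (SE, edgeR adjusted p = 0.976), and Ngrn, 394 bases from Ttll13, had -0.22 ± 0.15 (SE, edgeR adjusted p = 0.510). Gdpgp1, 4315 bases from Ttll13 on its other side, had -0.21 ± 0.25 (SE, edgeR adjusted p = 0.758). These 3, the nearest of the 20, are named after their values were seen. With dCas9-SCN9A none of the 20 was called by edgeR, DESeq2 or limma-voom, with 2 of 20 at an unadjusted edgeR p under 0.05, where 4.17% of all genes were higher and 5.92% lower.

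Across the 10 libraries the members followed one another to different degrees. Each gene's log2 CPM was set against the mean of its arm's control, and its profile was correlated with the mean of the other 9 members. Pearson's r was highest for Mamdc2 at 0.982 and lowest for Lyst at 0.698, over libraries that share their group, and the rise used to choose the genes makes much of it. Among 10848 other genes, the profiles most like the members' mean were those of Akna (r = 0.985), Ankrd37 (0.982), Hmox1 (0.981), Map6d1 (0.979) and Rgs9 (0.977), as a description over 10 libraries. Their log2 fold changes with the zinc finger were 0.52 for Akna, 1.14 for Ankrd37, 1.08 for Hmox1, 1.01 for Map6d1 and 0.71 for Rgs9. With dCas9-SCN9A they lay between -0.11 and 0.02. Hmox1, heme oxygenase, had 182 and 190.0 CPM in ZF-SCN9A, against 84.9 and 91.3 CPM in mCherry.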

How the data were processed

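RNA was sequenced from 10 Neuro2a libraries. The deposited values are raw counts of reads per gene, not normalised, in 1 unstranded and 2 strand columns. The submitters' processing notes name STAR 2.7.3a, bcl2fastq 2.20, DESeq2 and the build GRCm38, with no counting settings. The first strand column held 50.0% to 50.2% of stranded reads, so the unstranded column was used, and reads of overlapping genes on opposite strands cannot be told apart. The 4 entries that name no gene, 25.0% to 28.2% of listed reads, and 4 plasmid entries were left out of library sizes and tests. Of 55401 identifiers, 55141 were found in GENCODE M21.

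ZF-SCN9A was compared with mCherry, and dCas9-SCN9A with dCas9-empty, in separate quasi-likelihood fits of edgeR 4.0.16 (R 4.3.3, limma 3.58.1). They used robust fitting, TMM, the filterByExpr filter, two-sided p-values and Benjamini-Hochberg adjustment over all genes tested. Calls are at an adjusted p under 0.05. The zinc-finger fit had 2 residual degrees of freedom, a biological coefficient of variation of 5.12% and infinite prior degrees of freedom for 88.0% of genes, so its p-values rest on spread shared across genes. The dCas9 fit had 4 residual degrees of freedom and 6.07%. The difference between the repressors was a contrast fitted on the 10 libraries together. Intervals of 95% come from the fit's standard error and its t quantile. The scripts were tested on simulated data.

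The members and gene lists were chosen with earlier results of these data known. Named besides the members were every relative or neighbour called, otherwise each family's most abundant relative, and the 5 genes most like the members' mean profile among those of at least 5 CPM (pseudocount 0.5 CPM); exceptions are stated. Replicates of a group differed by more than sampling noise (chi-square per degree of freedom 1.98 to 8.31). The labels do not say that they were separate cultures, so p-values cover just the spread between the samples at hand, possibly technical. Alternatives were RLE and plain library sizes, no filter, a filter at 1 CPM, each strand column, DESeq2 1.42.0, limma-voom, all 10 libraries in 1 fit, the replicate number as a block, and leaving out each library.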

Additional observations from a re-analysis of the deposited data

Results flagged for a closer look

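Lyst was flagged because the libraries of the arms were ordered in opposite ways. Every dCas9-SCN9A library was below every dCas9-empty library, as for 9.33% of genes tested. The log2 fold change was -0.33 and not called (edgeR adjusted p = 0.114). Both ZF-SCN9A libraries were above both mCherry libraries, at 0.31, which follows from the choice of the gene. The difference between the arms was not tested for Lyst, since it contains the rise by which the gene was chosen.

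A pair of relatives changed differently with the repressors by the test of the difference itself. For Nbeal1, of the family of Lyst, the change with the zinc finger minus the change with dCas9 was -0.70 on the log2 scale (edgeR adjusted p = 0.0281). For Stard10, of the family of Stard5, it was -0.64 (edgeR adjusted p = 0.0353). Of 69 relatives in that test, 0 were called higher and 2 lower, beside 0.907% of all genes called in either direction. Both relatives had the lower level with the zinc finger, while the higher level of the members follows from their choice.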

How the results depend on the processing

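The zinc finger called 609 genes by edgeR, 283 on the first strand column, 275 on the second, 128 by DESeq2, 348 with all 10 libraries in 1 fit, and 201 to 787 when 1 library was left out (262 without mCherry replicate 1, 201 without ZF-SCN9A replicate 1, 249 without ZF-SCN9A replicate 2). Higher and lower calls were 251 and 358, against 149 and 326 with no filter and 30 and 98 by DESeq2. With dCas9-SCN9A 6 genes were called, 172 with no filter, 13 on the first strand column, 28 by DESeq2, 29 with all 10 libraries, and 1 to 34 when 1 library was left out (3 without dCas9-empty replicate 2, 21 without its replicate 3, 34, 17 and 1 without dCas9-SCN9A replicates 1, 2 and 3). Of the 10 members, 0 were called with dCas9-SCN9A, and 1, Lyst as lower, with no filter (edgeR adjusted p = 1.71e-05), on the first strand column (0.0449), by DESeq2 (0.0126) and with all 10 libraries (0.0111), or 0 to 1 when 1 library was left out. Relatives called with the zinc finger were 5, but 2 on the first strand column, 3 on the second, 1 by DESeq2 and 2 to 5 when 1 library was left out. Neighbours called were 1, but 0 on either strand column and by DESeq2, and 0 to 3 when 1 library was left out. The difference between the repressors called 143 genes, 274 with no filter and 89 on the second strand column. The cause of these moves was not tested. Akna, Ankrd37, Map6d1, Rgs9, Plxna1, Slc38a2 and Stard10 were not called by DESeq2, which gave Htr3b no adjusted p.

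A replicate block in the fit gave 262 genes called with dCas9-SCN9A and 429 for the difference, and called 1 member, Lyst, lower (edgeR adjusted p = 8.73e-04). The zinc-finger count was 569 with the block. Same-numbered libraries correlated at 0.0662 in the zinc-finger arm and at 0.238, 0.161 and 0.0397 in the dCas9 arm. The labels do not say what they share beyond a number, so the main fits left the block out. That no member was called with dCas9-SCN9A rests in part on this choice.

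No log2 fold change of a member with the zinc finger changed sign under the alternatives: of 140 values, 127 lay within 1 SE of the reported one and 13 did not, and the lowest was 0.26. Those 13 were 2 each for Plxnd1 and Ttll13, 4 each for Slc1a7 and Slc38a3, and 1 for Mamdc2. The reads behind Ttll13, Slc1a7, Fgf11, Slc38a3 and Tmem8b, at 11 to 67 a library in the zinc-finger arm, limit how closely their rises are known.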
